A study of Mus musculus with 8 samples.

Results

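The RNAs described are 6 rows of a table of 23420 mouse genes: Rn45s, the ribosomal precursor RNA; Lars2, a mitochondrial tRNA synthetase gene; Rmrp, Rpph1 and Rprl3, the RNAs of RNase MRP and RNase P and a copy of the RNase P RNA; and Terc, the telomerase RNA. The rows were taken by gene symbol, and they were picked because their share of the counts differs between libraries, so their levels across the libraries are a description. Each library was made from an individual embryo, and the groups are 4 mutants of Pygo2 and 4 of their wild-type littermates, all at 10.5 days post coitum. The labels call the tissue branchial arches, and the looping heart was dissected along with them. The labels do not say how Pygo2 was altered, whether the mutants carry 1 or both altered copies, or which strain was used. Total RNA, 300 ng per library, was depleted of ribosomal RNA with RiboZero and made into stranded TruSeq libraries, a protocol shared by both groups. Libraries are named here by genotype and by the replicate number in the labels.

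Cells make the RNA of the large ribosomal RNAs as a single long precursor, transcribed by RNA polymerase I in the nucleolus and then trimmed and cut into the mature RNAs. RNase MRP, a ribonucleoprotein built on the RNA Rmrp, takes part in that cutting, and RNase P, built on the RNA Rpph1, removes the leader from the 5′ end of precursor tRNAs; both RNAs are made by RNA polymerase III and share most of their proteins. Telomerase copies a template within the RNA Terc onto chromosome ends, and Terc is made by RNA polymerase II and folds at its 3′ end like an H/ACA small nucleolar RNA. All are made in most cell types, and none but the Lars2 mRNA normally carries a poly(A) tail in its mature form, so libraries from total RNA can hold them where poly(A)-selected libraries hold little.

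The 8 libraries held 20823890 to 28175968 counts, and values are given as CPM, counts per 1000000 of the library total scaled by TMM (factors 0.946 to 1.03). Pygo2 itself was at 19.3 ± 1.99 CPM in mutants and 51.0 ± 5.2 CPM in wild-type embryos (SD, n = 4 each), with a fitted log2 difference of -1.40 (SE 0.12, edgeR quasi-likelihood adjusted p = 0.00805), which no longer passed the threshold in 5 of 8 fits that left out a library (without mutant 2, 3 or 4 or wild-type 1 or 2). Summed heart muscle markers, all 10 detected in every library, ranged over 11103 to 23506 CPM in mutants, highest in mutant 1, and over 7564 to 17563 CPM in wild-type embryos, lowest in wild-type 4. Summed arch mesenchyme markers, 10 of 10 detected in every library, ranged over 254 to 397 CPM in mutants and 283 to 522 CPM in wild-type embryos. Erythroid markers summed to 2879 to 9481 CPM in mutants and 4856 to 23905 CPM in wild-type embryos, with 9 of 10 detected in every library and Hba-a1 at 0 in all. In whole tissue, fewer cells of a type and less RNA per cell cannot be told apart. Mutant 1 and wild-type 4 stand apart from the rest in Rn45s and Lars2, and means and fold changes that rest on them are given with and without them.

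Together the 6 rows took 2.21% ± 0.434 of the counts in mutants and 3.61% ± 2.28 in wild-type embryos (SD, n = 4 each), or 2.05% ± 0.377 in mutants without mutant 1 and 2.47% ± 0.259 in wild-type embryos without wild-type 4 (SD, n = 3 each). The share was 2.67%, 2.43%, 2.06% and 1.67% in mutants 1 to 4, against 2.38%, 2.28%, 2.77% and 7.01% in wild-type 1 to 4. The exact 95% binomial interval of the highest share, in wild-type 4, was 7.004% to 7.023%, and that of the lowest, in mutant 4, was 1.67% to 1.68%. Such intervals cover counting error only, since reads without molecular identifiers are not independent molecules. Wild-type 4 stands far above the other 7 libraries, and the other 3 wild-type shares lie among the mutant shares or just above them.

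**Figure D1:**
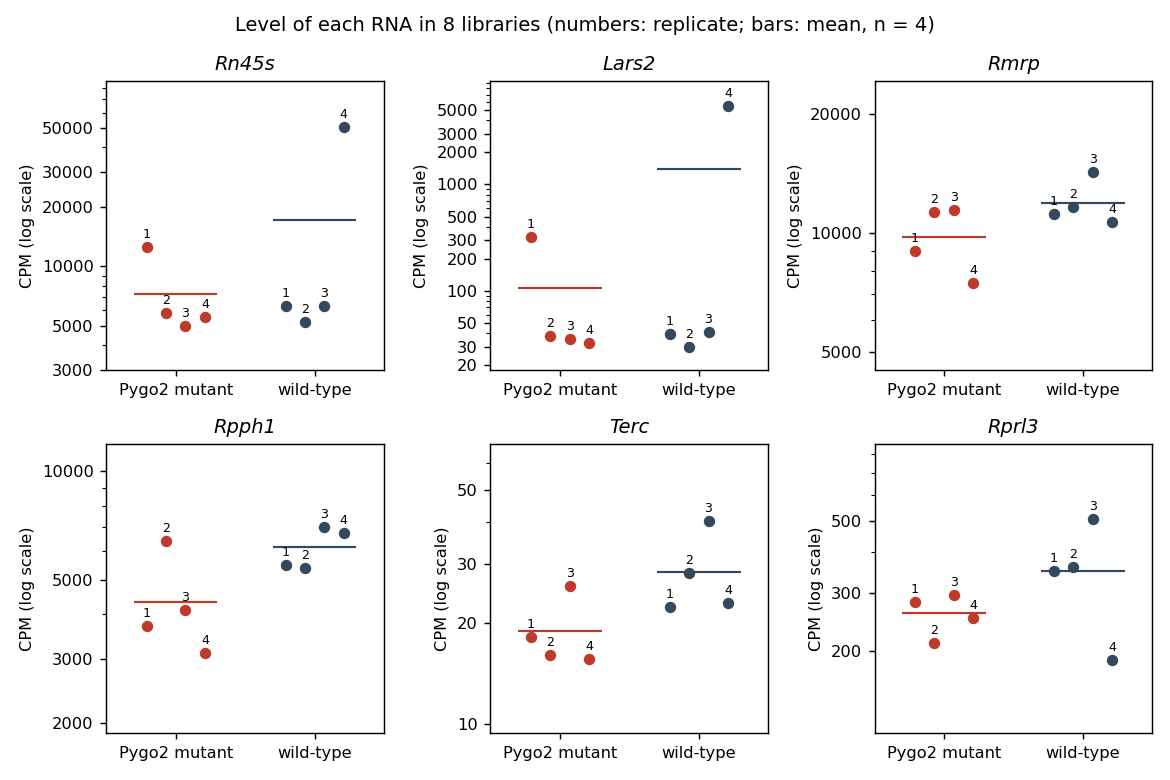
Level of Rn45s, Lars2, Rmrp, Rpph1, Terc and Rprl3 in CPM (log axes) in the 4 Pygo2 mutant and 4 wild-type libraries; numbers are replicates and bars are means (n = 4). Wild-type 4 is at 51044 CPM for Rn45s and 5511 CPM for Lars2, mutant 1 is the highest mutant for both, and the mutant and wild-type points of all 6 RNAs overlap.

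Rn45s is the precursor from which the mature 18S, 5.8S and 28S ribosomal RNAs are cut, so its row can also hold reads of the mature RNAs that depletion left behind. It was at 12578, 5842, 4976 and 5577 CPM in mutants 1 to 4, against 6328, 5207, 6319 and 51044 CPM in wild-type 1 to 4. Mutant 1 and wild-type 4 were the high libraries, and the other 6 lay together from 4976 to 6328 CPM with mutants and wild-type embryos interleaved. The row held 301275, 165962, 132140 and 154527 counts in mutants 1 to 4, against 143630, 123037, 129270 and 1360346 counts in wild-type 1 to 4. As a share of the library, Rn45s took 1.29% of mutant 1 (exact 95% interval 1.29% to 1.30%) and 4.83% of wild-type 4 (4.82% to 4.84%). Its share in the other 3 mutants was 0.597% (0.594% to 0.5997%), 0.491% (0.489% to 0.494%) and 0.566% (0.563% to 0.569%), and in the other 3 wild-type embryos 0.643% (0.640% to 0.647%), 0.523% (0.520% to 0.526%) and 0.621% (0.617% to 0.624%). The counting intervals are therefore narrow beside the differences between libraries. The group means were 7243 ± 3575 CPM in mutants and 17224 ± 22552 CPM in wild-type embryos (SD, n = 4 each), so the wild-type SD exceeded its mean. They were 5465 ± 443 CPM in mutants without mutant 1 and 5951 ± 645 CPM in wild-type embryos without wild-type 4 (SD, n = 3 each).

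Across all 8 libraries the highest Rn45s level was 10.3 times the lowest. Among the 11239 genes with a mean of at least 5 CPM, the same quotient had a median of 1.51, and Rn45s stood at rank 85 from the widest, within the top 0.756%. The row was picked for differences between libraries, so this rank restates the choice. Set against Rmrp, an RNA of RNA polymerase III in the same libraries, Rn45s had 140.0, 51.8, 43.7 and 74.6 counts per 100 Rmrp counts in mutants 1 to 4, against 56.7, 44.7, 44.4 and 479 in wild-type 1 to 4. The same mutant 1 and wild-type 4 are highest on this scale, which does not use the library total, and mutant 4 lies above the remaining 5, beside its Rmrp level, the lowest of the 8. Wild-type 4 also had the lowest summed heart muscle markers and mutant 1 the highest, and the part of heart tissue content in the Rn45s levels was not tested.

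Lars2 encodes the mitochondrial leucyl-tRNA synthetase, which charges leucine onto mitochondrial tRNA. The gene (ENSMUSG00000035202.8) is protein-coding, on the plus strand at chr9:123366927-123462666 in GRCm38, and its transcript of 3894 bases has 21 exons and a 3′ UTR of 989 bases that starts at base 2906. Lars2 was at 321, 37.8, 35.5 and 32.2 CPM in mutants 1 to 4, against 39.5, 30.0, 41.0 and 5511 CPM in wild-type 1 to 4. Its high libraries are again mutant 1 and wild-type 4, and the other 6 lie between 30.0 and 41.0 CPM with the groups interleaved. The row held 7680, 1074, 943 and 893 counts in mutants 1 to 4, against 896, 709, 838 and 146862 counts in wild-type 1 to 4. The share was 0.0330% of mutant 1 (exact 95% interval 0.0323% to 0.0337%) and 0.521% of wild-type 4 (0.519% to 0.524%). The mean share was 0.0109% in mutants and 0.133% in wild-type embryos, or 0.00355% in mutants without mutant 1 and 0.00368% in wild-type embryos without wild-type 4. The highest level was 184 times the lowest, rank 13 of the same 11239 genes and within the top 0.116%. Lars2 too was picked for such differences, so its rank restates the choice.

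The Lars2 row did not keep a fixed proportion to the Rn45s row. Lars2 had 25.5, 6.47, 7.14 and 5.78 counts per 1000 Rn45s counts in mutants 1 to 4, against 6.24, 5.76, 6.48 and 108 in wild-type 1 to 4. In 6 libraries the ratio lay between 5.76 and 7.14, and it was higher in both libraries with high Rn45s, most in wild-type 4. The log2 CPM of Rn45s and Lars2 had a Pearson r of 0.99 over the 8 libraries (exact permutation p = 0.000992, adjusted over 15 pairs of the 6 RNAs p = 0.0149) and a Spearman rho of 0.905 (exact permutation p = 0.00456, adjusted p = 0.0684). Without mutant 1 and wild-type 4 the r was 0.748 (exact permutation p = 0.0972, n = 6). The r of 0.99 therefore leans on those 2 libraries, and 6 libraries are too few to tell whether the rest are related. Both rows were picked for this pattern, and the correlation is a description.

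**Figure D2:**
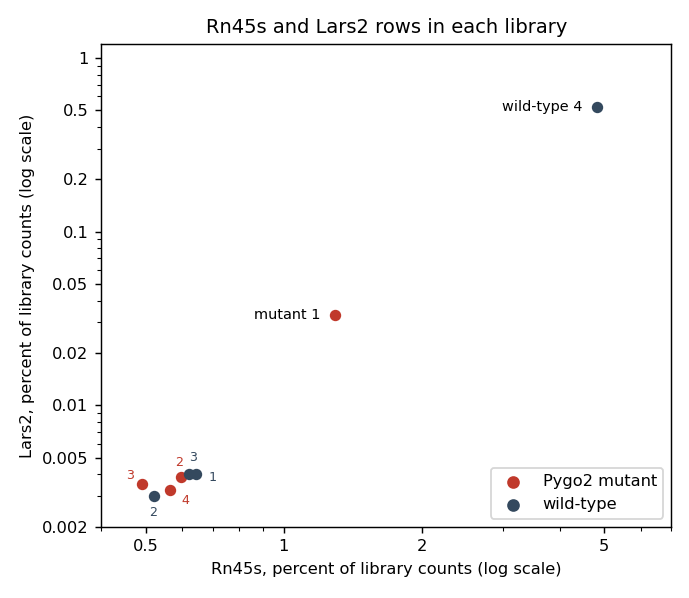
Percent of library counts in the Rn45s row (x axis, log scale) and in the Lars2 row (y axis, log scale) for each of the 8 libraries, coloured by genotype and numbered by replicate. Wild-type 4 lies at 4.83% Rn45s and 0.521% Lars2, mutant 1 at 1.29% and 0.0330%, and the other 6 lie between 0.491% and 0.643% Rn45s.

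The final exon of mouse Lars2 is known for a stretch in its 3′ UTR related to 28S ribosomal RNA. No ribosomal RNA sequence was compared here, and the table has 1 count per gene, so how the Lars2 counts of wild-type 4 and mutant 1 divide between the coding part and that stretch was not tested. Among the GENCODE M21 transcripts, bases 3163 to 3349 of the Lars2 transcript, inside the 3′ UTR, matched the transcript of AA474408 with 80.1% identity over an alignment of 196 bases. Bases 3278 to 3349 matched Gm15564, an antisense transcript, with 98.6% identity over 72 bases, on the same strand of the RNA. No row of the counts carries either symbol, so neither gene could be analysed here. Only 3 of 3845 windows of 50 bases in Lars2, 0.078%, occurred without a mismatch in a transcript of another gene, which was Gm15564.

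Genes of the same family as Lars2 are the other mitochondrial aminoacyl-tRNA synthetases, listed here with the cytosolic leucine enzyme Lars and with Kars and Gars, which serve both compartments. All 19 listed genes were tested, 11 were higher and 8 lower in mutants, their median was 0.01 (log2 fold change), and 0 passed the threshold by the edgeR quasi-likelihood test or had an unadjusted p under 0.05. The pair of lowest p were Yars2, the tyrosine enzyme, at 21.9 ± 1.08 CPM in mutants and 24.4 ± 2.33 CPM in wild-type embryos, and Cars2, the cysteine enzyme, at 14.3 ± 0.931 CPM in mutants and 13.0 ± 1.49 CPM in wild-type embryos (SD, n = 4 each).

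Rmrp is the RNA of RNase MRP, and in people mutations of its counterpart cause cartilage-hair hypoplasia. The gene (ENSMUSG00000088088.1, ribozyme in the annotation) is on the minus strand at chr4:43492788-43493058 in GRCm38, and its RNA has 271 bases. It overlaps the protein-coding gene Ccdc107 on the opposite strand over 159 bases. The sequence is shown because, counted without strand, a read of the overlap could not be assigned to a single gene by position alone. It is the GENCODE M21 transcript, 5′ to 3′, with capitals marking bases 36 to 159, the 124 bases that are antisense to a Ccdc107 transcript.
Rmrp: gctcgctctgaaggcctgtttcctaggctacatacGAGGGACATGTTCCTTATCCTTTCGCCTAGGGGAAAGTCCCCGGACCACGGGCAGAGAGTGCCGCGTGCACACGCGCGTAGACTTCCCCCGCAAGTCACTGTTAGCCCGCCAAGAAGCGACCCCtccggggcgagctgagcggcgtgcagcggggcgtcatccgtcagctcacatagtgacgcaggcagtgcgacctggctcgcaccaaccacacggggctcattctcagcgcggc
Of 222 windows of 50 bases in Rmrp, 75 (33.8%) lie wholly in the capitals. No source used here gives the strand setting of the counting. The Ccdc107 row itself was at 8.84 to 11.9 CPM in mutants and 9.39 to 12.3 CPM in wild-type embryos, and its groups overlap.

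Rmrp was at 8987, 11273, 11394 and 7481 CPM in mutants 1 to 4, against 11155, 11649, 14247 and 10665 CPM in wild-type 1 to 4. Wild-type 3 was the highest library and mutants 4 and 1 the lowest, while mutants 2 and 3 lay among the wild-type embryos, so the groups overlap. The share of the library was 0.990% ± 0.184 in mutants and 1.18% ± 0.163 in wild-type embryos (SD, n = 4 each). The highest level was 1.90 times the lowest, and 21.4% of the 11239 genes had a quotient at least as wide, so Rmrp varied far less than Rn45s. Per length of annotated RNA, Rmrp had the highest level of the 5 RNAs with a transcript in the annotation, 36103 ± 6984 CPM per kb in mutants and 44019 ± 5893 CPM per kb in wild-type embryos (SD, n = 4 each).

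Rpph1 is the RNA of RNase P, and Rprl3 is annotated as an RNase P RNA-like copy at another locus. Rpph1 (ENSMUSG00000092837.1, ribozyme) is on the minus strand at chr14:50807449-50807767 in GRCm38 and has 319 bases; Rprl3 (ENSMUSG00000088025.1, ribozyme) is on the minus strand at chr8:3803069-3803358 and has 290 bases in GENCODE M21 and 235 in RefSeq. Bases 1 to 257 of Rpph1 and all of Rprl3 are shown from GENCODE M21, 5′ to 3′, because how far reads can be told apart between the 2 rows depends on the letters that differ. Capitals mark the 15 mismatched bases and, in Rpph1, a stretch of 21 bases, a tandem copy that Rprl3 lacks.
Rpph1: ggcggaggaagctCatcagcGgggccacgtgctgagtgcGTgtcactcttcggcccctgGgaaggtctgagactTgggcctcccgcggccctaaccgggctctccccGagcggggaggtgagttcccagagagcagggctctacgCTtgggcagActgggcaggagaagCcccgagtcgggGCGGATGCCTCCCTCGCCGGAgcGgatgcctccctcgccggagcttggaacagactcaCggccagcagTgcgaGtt
Rprl3: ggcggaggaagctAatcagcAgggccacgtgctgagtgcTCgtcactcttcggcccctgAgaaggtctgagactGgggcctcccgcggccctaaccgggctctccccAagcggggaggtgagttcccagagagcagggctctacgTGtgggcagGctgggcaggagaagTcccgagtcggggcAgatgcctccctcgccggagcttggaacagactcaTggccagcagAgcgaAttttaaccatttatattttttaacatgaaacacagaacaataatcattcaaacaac
Bases 1 to 257 of Rpph1 align with bases 1 to 236 of Rprl3, with 221 of 236 aligned bases identical (93.6%) and a longest identical run of 37 bases. The last 54 bases of Rprl3 have no counterpart in that alignment. No window of 50 bases is the same in both, and 7 of the 241 windows of Rprl3 (2.9%) occur in Rprl2, a further copy. Rprl1 and Rprl2, each 92.1% identical to Rprl3, held 0 counts in all 8 libraries. Rpph1 overlaps Ccnb1ip1, a protein-coding gene on the same strand, over 284 of its 319 bases, and 184 of its 270 windows (68.1%) also occur in Ccnb1ip1 transcripts. The Ccnb1ip1 row was at 0.669 to 2.25 CPM in mutants and 0.3002 to 4.85 CPM in wild-type embryos. Counts of these overlapping and near-identical genes are uncertain, since no source used here gives the handling of ambiguous reads.

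Rpph1 was at 3713, 6377, 4105 and 3127 CPM in mutants 1 to 4, against 5482, 5388, 7006 and 6718 CPM in wild-type 1 to 4. Mutants 1, 3 and 4 lay below every wild-type library and mutant 2 lay among them. The means were 4330 ± 1422 CPM in mutants and 6148 ± 833 CPM in wild-type embryos, and the shares of the library 0.439% ± 0.146 in mutants and 0.605% ± 0.0689 in wild-type embryos (SD, n = 4 each). The highest level was 2.24 times the lowest, as wide or wider in 12.7% of the 11239 genes. Per kb of annotated RNA this is 13575 ± 4458 CPM in mutants and 19274 ± 2612 CPM in wild-type embryos (SD, n = 4 each), below Rmrp in both groups.

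Rprl3 was at 281, 212, 296 and 253 CPM in mutants 1 to 4, against 352, 359.9, 506 and 187 CPM in wild-type 1 to 4. Wild-type 4, where Rn45s and Lars2 were highest, was the lowest library for Rprl3, and the other 3 wild-type libraries lay above all 4 mutants. The means were 261 ± 37.1 CPM in mutants and 351 ± 130 CPM in wild-type embryos (SD, n = 4 each). Per kb of annotated RNA the level was 899 ± 128 CPM in mutants and 1211 ± 449 CPM in wild-type embryos.

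The RNase P RNA and its copy did not keep 1 proportion. Rprl3 had 7.57, 3.33, 7.22 and 8.09 counts per 100 Rpph1 counts in mutants 1 to 4, against 6.42, 6.68, 7.22 and 2.79 in wild-type 1 to 4. Mutant 2 and wild-type 4 had the low ratios, and the other 6 libraries ran from 6.42 to 8.09. The ratio of Rpph1 to Rmrp was highest in the same libraries. It was 41.3, 56.6, 36.0 and 41.8 Rpph1 counts per 100 Rmrp counts in mutants 1 to 4, against 49.1, 46.3, 49.2 and 63.0 in wild-type 1 to 4. These libraries also had the lowest Rprl3 levels of the 8, and of the pair wild-type 4 alone had high Rn45s. Over the 8 libraries log2 CPM of Rpph1 and Rprl3 had r = 0.128 (exact permutation p = 0.761), a rho of 0.119 (exact permutation p = 0.793) and, without mutants 1 and 4, r = -0.06.

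**Figure D3:**
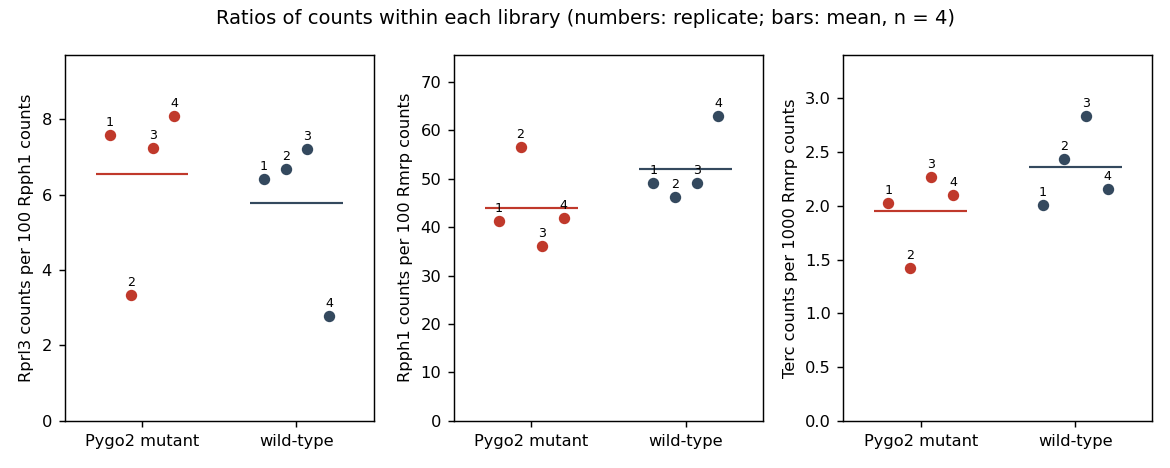
Counts of Rprl3 per 100 Rpph1 counts, of Rpph1 per 100 Rmrp counts and of Terc per 1000 Rmrp counts in each of the 4 Pygo2 mutant and 4 wild-type libraries; numbers are replicates and bars are means (n = 4). Mutant 2 at 3.33 and wild-type 4 at 2.79 have the lowest Rprl3 to Rpph1 ratios, and the same libraries have the highest Rpph1 to Rmrp ratios, 56.6 and 63.0.

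Terc carries the template that telomerase copies into telomere repeats. The gene (ENSMUSG00000064796.1, misc_RNA) is on the minus strand at chr3:96414437-96414859 in GRCm38, with 423 bases in GENCODE M21 and 397 in RefSeq. Bases 1 to 200 are shown from GENCODE M21, 5′ to 3′, because this stretch holds the template. Capitals mark the template region CTAACCCT at bases 29 to 36, which occurs at that place alone in the RNA.
Terc: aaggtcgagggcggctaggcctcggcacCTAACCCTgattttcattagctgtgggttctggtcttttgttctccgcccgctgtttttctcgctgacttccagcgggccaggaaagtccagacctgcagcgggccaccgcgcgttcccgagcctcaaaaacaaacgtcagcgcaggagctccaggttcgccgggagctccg
Of its 374 windows of 50 bases, 0 occur in a transcript of another gene, and no annotated gene overlaps it. Its nearest match, 1600017P15Rik, has 81.1% identity over 408 aligned bases and has no row under that symbol in the counts. Terc counts are therefore less exposed than those of Rpph1 to sharing with other rows.

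Terc was at 18.2, 16.1, 25.8 and 15.7 CPM in mutants 1 to 4, against 22.3, 28.4, 40.4 and 23.0 CPM in wild-type 1 to 4. Mutants 1, 2 and 4 lay below every wild-type library, and mutant 3 lay above wild-type 1 and 4. These levels rest on 436, 456, 685 and 435 counts in mutants 1 to 4, against 507, 670, 827 and 612 counts in wild-type 1 to 4. The means were 18.9 ± 4.70 CPM in mutants and 28.5 ± 8.38 CPM in wild-type embryos (SD, n = 4 each). Per kb of annotated RNA, Terc was at 44.8 ± 11.1 CPM in mutants and 67.4 ± 19.8 CPM in wild-type embryos, the lowest of the 4 noncoding RNAs with a transcript.

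The number 3 library was the highest of its group for Terc, Rmrp and Rprl3, but not for Rpph1 in mutants, where mutant 2 was highest, nor for Rn45s and Lars2. It was also the highest of its group in the summed levels of 3 further classes of RNA that lack a poly(A) tail or are processed from introns. Replication-dependent histone genes, 63 of 68 with counts, summed to 10646, 11639, 15353 and 10985 CPM in mutants 1 to 4, against 13749, 14785, 18779 and 13991 CPM in wild-type 1 to 4. H/ACA small nucleolar RNA genes, the class to which the Terc fold belongs, summed to 241, 305, 324 and 297 CPM in mutants 1 to 4, against 327, 321, 529 and 307 CPM in wild-type 1 to 4. Small Cajal body RNA genes summed to 201, 247, 254 and 178 CPM in mutants 1 to 4, against 254, 247, 464 and 212 CPM in wild-type 1 to 4. Wild-type 3 was the highest of all 8 libraries in each class. Polyadenylated RNAs were not compared as a class. Rnaseh2c, a protein-coding gene, had an r of 0.986 with Terc in log2 CPM over the 8 libraries. That r is the highest of 11233 genes, so it is a description and carries no test. Summed markers of neural tube and neurons were also highest of their group in the number 3 libraries. They summed to 31.9, 161, 564 and 473 CPM in mutants 1 to 4. In wild-type 1 to 4 they summed to 50.8, 110, 468 and 144 CPM. The RNA classes were added after the values of the 6 RNAs had been seen. The part of such class-wide differences, or of neural tissue content, in the Terc, Rmrp and Rprl3 levels was not tested.

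The comparison of mutants with wild-type embryos asks whether any of these RNAs differs with the Pygo2 genotype beyond the spread between embryos. By the edgeR quasi-likelihood test over 14861 genes, 0 of the 6 RNAs passed an adjusted p of 0.05 (0.00673% of all genes did, Pygo2 alone), and the adjusted p of each was 0.999975. Limma-voom also called 0 of the 6, and DESeq2 0 of the 4 for which it gave a p, all but Rn45s and Lars2. The fitted log2 fold change of mutant over wild-type was below 0 for 6 of 6, against 50% of all genes, with a median over all genes near 0 (-1.31e-05). An unadjusted p under 0.05 was found for 2 of 6, Rpph1 and Terc, against 1.3% of all genes. With the replicate number as a block it was found for 3 of 6, Rmrp, Rpph1 and Terc, against 5.01% of all genes. Mutant and wild-type libraries were without overlap for 0 of 6, against 0.565% of genes with every mutant below and 0.484% with every mutant above. The mutant lay below the wild-type library of the same number in 4 of 4 pairs for 2 of 6, Rmrp and Terc, against 5.89% of genes, and in at least 3 pairs for 4 of 6, against 31.7%. Since the rows were chosen on differences between these libraries, nothing is read from these counts about the genotype.

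For Rn45s and Lars2 the fold change rested on wild-type 4 and mutant 1, and it was positive without wild-type 4. Rn45s had a log2 fold change of -1.25 (SE 0.75, 95% interval -3.09 to 0.59), which was 0.28 (SE 0.33) without wild-type 4, -1.65 without mutant 1 and -0.12 (SE 0.14) without both. Lars2 had -3.72 (SE 1.81, 95% interval -8.15 to 0.71), which was 1.53 (SE 0.87) without wild-type 4, -5.31 without mutant 1 and -0.07 (SE 0.15) without both. Blocking on the replicate number gave -0.48 (SE 0.61) for Rn45s and -0.22 (SE 1.5) for Lars2. With both libraries out, the difference between the groups is under its standard error for both RNAs.

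The structural RNAs of RNase P, RNase MRP and telomerase kept a negative log2 fold change in each of the 17 other fits, and none reached the adjusted threshold in any. These fits reuse the same libraries, on whose differences the rows were chosen, so the shared sign is a description. Terc had -0.59 (SE 0.23, 95% interval -1.15 to -0.03, unadjusted p = 0.0298). Its value was -0.37 without wild-type 3, its highest library, and with the replicate number as a block it was -0.58 (SE 0.11, edgeR quasi-likelihood adjusted p = 0.771). Rpph1 had -0.51 (SE 0.22, 95% interval -1.04 to 0.03, unadjusted p = 0.0455), with -0.75 without mutant 2 and no value above -0.38 when any other library was dropped. Rprl3 had -0.43 (SE 0.26, 95% interval -1.06 to 0.20), which was -0.64 without wild-type 4 (unadjusted p = 0.00556, edgeR quasi-likelihood adjusted p = 0.999905) and -0.20 without wild-type 3. Rmrp had -0.29 (SE 0.17, 95% interval -0.70 to 0.13), which was -0.18 without mutant 4 and -0.19 without wild-type 3, and -0.30 with the block (SE 0.10, unadjusted p = 0.0223, edgeR quasi-likelihood adjusted p = 0.968). The upper bounds of the 4 intervals lie between -0.03 and 0.20, and a p that misses the threshold does not show that the levels are equal.

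**Figure D4:**
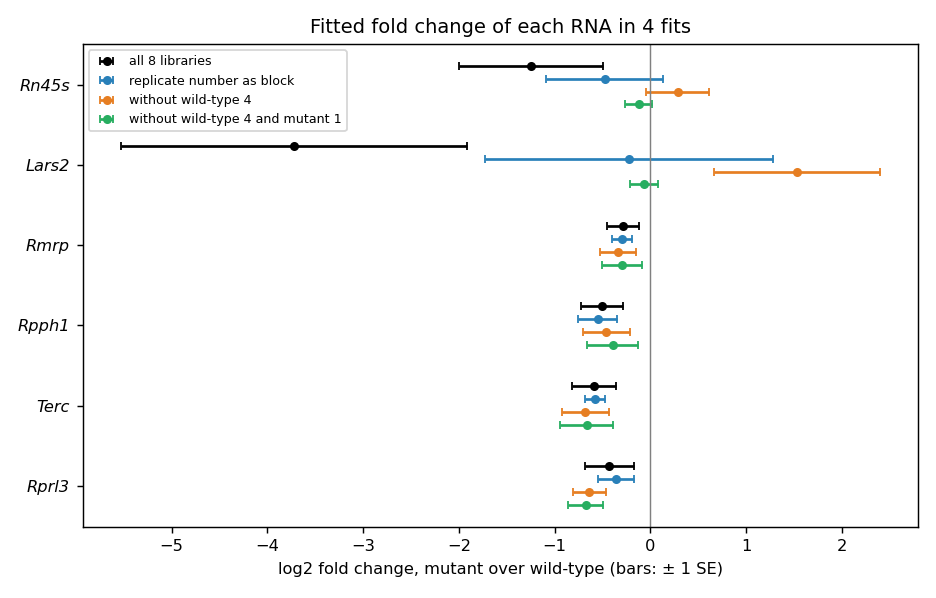
Fitted log2 fold change, mutant over wild-type, of each of the 6 RNAs (x axis; bars are 1 SE either way) in the fit to all 8 libraries, with the replicate number as a block, with wild-type 4 left out, and with that library and mutant 1 left out. Rn45s and Lars2 move from -1.25 and -3.72 to -0.12 and -0.07 when both libraries are left out, while Rmrp, Rpph1, Terc and Rprl3 stay between -0.68 and -0.29 in the 4 fits.

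By p, the authors' deposited table ranks the 6 RNAs between 53 and 461 of its 13631 genes. That comparison uses the same 8 libraries on which the rows were chosen, so its ranks and p-values are a description too. In the authors' deposited table Terc had a log2 fold change of -0.59 (p = 0.0217, rank 53), Lars2 -3.71 (p = 0.0279, rank 68) and Rpph1 -0.50 (p = 0.0332, rank 86). Rn45s had -1.24 (p = 0.0916, rank 288), Rprl3 -0.43 (p = 0.114, rank 374) and Rmrp -0.28 (p = 0.135, rank 461) in the authors' deposited table, with a false discovery rate of 1 for each of the 6.

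The RNAs were also compared in pairs across the 8 libraries. Rmrp and Rpph1 had an r of 0.817 in log2 CPM (exact permutation p = 0.00791, adjusted p = 0.0593) and a rho of 0.571 (exact permutation p = 0.151), with r = 0.524 without mutant 4 and wild-type 3. Rmrp and Terc had an r of 0.810 (exact permutation p = 0.0184, adjusted p = 0.0920) and a rho of 0.833 (exact permutation p = 0.0154, adjusted p = 0.116), with r = 0.483 without the same libraries. Terc and Rprl3 had an r of 0.753 (exact permutation p = 0.0308, adjusted p = 0.116) and a rho of 0.690 (exact permutation p = 0.0694), with r = 0.511 without them. Of the 15 pairs, Rn45s with Lars2 was the only pair with an adjusted permutation p under 0.05 for r, and 0 pairs had one for rho. Since the rows were picked for differences between these libraries, these p-values are a description and single out no pair. Each of the relations named here was weaker without the 2 libraries farthest from the median. All RNAs of a library share its depth and scaling, and mutant 4 and wild-type 3 are the lowest and highest libraries of both Rmrp and Terc.

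The genes whose log2 CPM was most like that of each RNA were looked up among 11233 genes of at least 5 CPM on average. For Rn45s the most alike was Olfml3, a secreted olfactomedin-like protein (r = 0.950, but 0.0904 without mutant 1 and wild-type 4), followed by Commd7, a COMM domain protein (r = 0.920), and Usp40, a deubiquitinase family member (r = 0.918). For Lars2 it was also Olfml3 (r = 0.930, but -0.41 without those libraries), followed by Commd7 (r = 0.920) and Rftn2, a lipid raft protein (r = 0.919). Olfml3 reached 42.0 CPM in wild-type 4, its highest library, and 19.1 CPM in its lowest. The likeness for these 2 rows therefore rested on mutant 1 and wild-type 4.

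The other 4 RNAs had alike genes whose r held up better. Rmrp was most like Usmg5 (r = 0.958, 0.907 without mutant 4 and wild-type 3), Ndufb11 (r = 0.953) and Atp5l (r = 0.945), which encode subunits of the mitochondrial ATP synthase and, for Ndufb11, of respiratory complex I. Rpph1 was most like Commd3, a COMM domain protein (r = 0.950, 0.944 without mutants 1 and 4), Lgals1, galectin-1 (r = 0.941), and Slc35b2, a transporter of the sulfate donor into the Golgi (r = 0.940). Terc was most like Rnaseh2c, a subunit of RNase H2 (r = 0.986, rho 0.976, and 0.993 without mutant 4 and wild-type 3), Malsu1, a mitochondrial ribosome assembly factor (r = 0.971), and Cnot7, a deadenylase of the CCR4-NOT complex (r = 0.965). Rprl3 was most like Pkn2, a protein kinase (r = 0.923, 0.733 without wild-type 3 and 4), Fabp5, a fatty acid binding protein (r = 0.917), and Etf1, the translation release factor (r = 0.917). These are the highest of 11233 values over 8 libraries each, so they describe a pattern and carry no test.

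The proteins that work with these RNAs were tested in the same fit, and 0 of them passed the threshold. Over all genes, 50% were lower in mutants and 1.3% had an unadjusted p under 0.05 by the edgeR quasi-likelihood test. Of the 11 protein subunits of RNase P and RNase MRP, 9 were lower and 2 higher in mutants, their median being -0.10 (log2 fold change) against -1.31e-05 over all genes, and 1 had an unadjusted p under 0.05. That gene was Pop5, a subunit common to both enzymes, at 11.8 ± 1.57 CPM in mutants and 15.3 ± 1.59 CPM in wild-type embryos (SD, n = 4 each). Its fitted log2 difference was -0.38 (SE 0.14, unadjusted p = 0.0261, edgeR quasi-likelihood adjusted p = 0.999975). The mutant was lower in 4 of 4 pairs, which held for 5.89% of all genes. Rpp21, a further RNase P subunit, had -0.16 (SE 0.14). Of the 10 listed genes of telomerase proteins and of factors of its assembly and RNA processing, 7 were lower and 3 higher. Their median was -0.02, with 0 at an unadjusted p under 0.05. Gar1, a protein of H/ACA particles, had -0.18 (SE 0.17), and Tep1, a telomerase-associated protein, had 0.17 (SE 0.17).

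The machinery that makes and processes the ribosomal precursor was close to the median of all genes. Of 15 genes of RNA polymerase I and its factors, 12 were lower and 3 higher in mutants, against 50% of all genes lower. Their median was -0.05 (log2 fold change), with 0 at an unadjusted p under 0.05. Polr1d, a subunit shared by RNA polymerases I and III, was at 81.4 ± 5.29 CPM in mutants and 92.7 ± 8.09 CPM in wild-type embryos (SD, n = 4 each), with a fitted log2 difference of -0.19 (SE 0.10); Taf1a, a subunit of the promoter selectivity factor, had -0.11 (SE 0.10). Of 39 tested genes of ribosomal RNA processing, 24 were higher and 15 lower, with a median of 0.02. Exosc3, a subunit of the RNA exosome, was at 22.2 ± 3.28 CPM in mutants and 27.8 ± 3.51 CPM in wild-type embryos (SD, n = 4 each), with a fitted log2 difference of -0.33 (SE 0.14, unadjusted p = 0.0442), the 1 gene of the list at an unadjusted p under 0.05, and Exosc4, a further exosome subunit, had -0.23 (SE 0.15). Of 22 genes of RNA polymerase III and its factors, 11 were higher and 11 lower, with a median below 0.01 in size (0.00455) and 0 at an unadjusted p under 0.05; Maf1, a repressor of that polymerase, had -0.20 (SE 0.12), and Snapc4, a subunit of the small nuclear RNA activating complex, had 0.19 (SE 0.12).

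Other short structural RNAs and long noncoding RNAs were compared in the same fit. Of 28 listed short structural RNAs, 9 were in the table and 3 passed the filter on low counts. All 3 had values below 0, against 50% of all genes. Rnu11, a small nuclear RNA of the minor spliceosome, had -0.34 (SE 0.23) and Rnu12, its partner, had -0.12 (SE 0.20). Of 12 listed long noncoding RNAs, 6 were higher and 6 lower, with a median of -0.01. Gas5, a host gene of C/D small nucleolar RNAs, was at 324 ± 103 CPM in mutants and 248 ± 93.8 CPM in wild-type embryos (SD, n = 4 each), with a fitted log2 difference of 0.38 (SE 0.31), and Snhg8, a host gene of an H/ACA small nucleolar RNA, had -0.27 (SE 0.21).

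**Figure D5:**
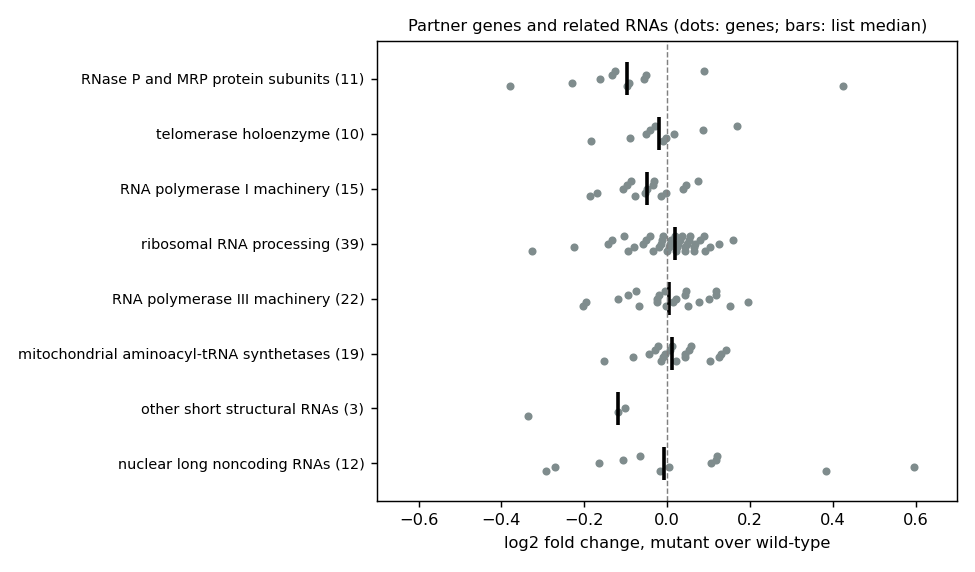
Fitted log2 fold change, mutant over wild-type (x axis), of each tested gene in 8 lists of partner genes and related RNAs, with the number tested in brackets; dots are genes and bars are list medians. The list medians lie between -0.12 and 0.02, and none of the genes passed the adjusted threshold by the edgeR quasi-likelihood test.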

How the data were processed

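RNA-seq libraries from 4 Pygo2 mutant and 4 wild-type embryos were used. The submitters' processing notes name mm10 (GRCm38) as the build and, as tools, HTSeq 0.6.1, TopHat2 2.0.11 and edgeR 3.14. The annotation, strand setting and read filters are given by no source used here. The authors deposited raw counts per gene symbol, and a comparison with log2 fold changes and p-values per gene; a scaled table was not used. No label says more of how embryos of a group were related than that they were littermates, so p-values measure the spread between these embryos.

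The 6 RNAs, the gene lists and the tests were chosen with earlier results of these data known. The text names the 6 RNAs, Pygo2, for each gene list the members that passed or otherwise the 2 of smallest p, and for each RNA the 3 genes of highest r; overlapping genes and sequence relatives come from the annotation. All 23420 rows entered the library totals of 20823890 to 28175968 counts. The deposited counts were filtered with filterByExpr, which left 14861 genes with all 6 RNAs among them, scaled with TMM and tested, two-sided, by the quasi-likelihood test of edgeR 4.0.16 in R 4.3.3 with genotype as the term. P-values were adjusted by Benjamini-Hochberg over all 14861 genes, with a threshold of 0.05. The common biological coefficient of variation was 26.3%. The fit was tested on simulated data with 200 genes changed. It called 62 of 100 genes with a true log2 change of 1 in size and 94 of 100 with 2, with 6 false calls. Smaller changes were not simulated. Intervals of fold changes use 6 degrees of freedom, fewer than the quasi-likelihood test, and log2 CPM a prior count of 2. An interval can therefore hold 0 where the unadjusted p of that test is under 0.05, as for Rpph1. Shares of a library carry exact 95% Clopper-Pearson intervals. Correlations used log2 CPM and an exact permutation test over 40320 orders, two-sided.

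The labels number both groups 1 to 4. Deviations of same-numbered libraries from their group means correlated at 0.556, 0.185, 0.676 and 0.186, all above 0.1. On that evidence the numbers were read as pairs in the replicate-block fit and in the counts of pairs. The main fit, with genotype alone, is unpaired, and what the numbers stand for is not given in the labels. The correlations are a weak basis for pairing. Mutant 4 correlated more with wild-type 3 (0.628), and mutant 2 with wild-type 1 (0.482), than with their own numbers. Alternatives were RLE scaling, no scaling, library sizes without the 6 RNAs, no filter, a filter at 1 CPM in 4 or more libraries, DESeq2 1.42.0, limma-voom (limma 3.58.1), the replicate block and each library left out, with wild-type 4 and mutant 1 left out together added after seeing the data. Sequences and positions are those of GENCODE M21 for GRCm38, matched for 5 of the 6 symbols, and Rn45s is named only. They were compared with BLAST 2.17.0 and Biopython 1.88.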

Additional observations from a re-analysis of the deposited data

Results flagged for a closer look

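In 7 of 22 groups of 4 libraries looked at, 1 library stood apart from the others of its group: its gap to the nearest, over the range of the group, was above Dixon's 95% critical value of 0.829. Chance gives about 1 such group in 20, but Rn45s and Lars2 were picked for their differences between these libraries and the ratios use the same counts, so this restates the choice of rows and is a description. All 7 concern mutant 1 or wild-type 4. For Rn45s, mutant 1 was at 12578 CPM with the nearest mutant at 5842 CPM (gap over range 0.886), and wild-type 4 at 51044 CPM with the nearest wild-type embryo at 6328 CPM (0.976). For Lars2, mutant 1 was at 321 CPM with the nearest mutant at 37.8 CPM (0.981), and wild-type 4 at 5511 CPM with the nearest wild-type embryo at 41.0 CPM (0.998).

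The ratios of counts within a library gave the other 3. Lars2 per 1000 Rn45s counts was 25.5 in mutant 1, with the nearest mutant at 7.14 (0.931), and 108 in wild-type 4, with the nearest wild-type embryo at 6.48 (0.993). Rn45s per 100 Rmrp counts was 479 in wild-type 4, with the nearest wild-type embryo at 56.7 (0.972). For Rmrp, Rpph1, Terc and Rprl3, no library passed the same limit in CPM.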

How the results depend on the processing

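Of 102 values of the log2 fold changes of the 6 RNAs under 17 alternatives, 98 kept their sign and their side of the adjusted threshold, 2 kept their sign with no p (DESeq2, Rn45s and Lars2) and 2 turned: without wild-type replicate 4, Rn45s was 0.28 and Lars2 1.53. Leaving out 1 library gave -1.65 to 0.28 for Rn45s, -5.31 to 1.53 for Lars2, -0.37 to -0.18 for Rmrp, -0.75 to -0.38 for Rpph1, -0.78 to -0.37 for Terc and -0.64 to -0.20 for Rprl3. Limma-voom gave -0.58 for Rn45s and -1.10 for Lars2. The adjusted p lay between 0.771 (Terc with the replicate block) and 0.999999 over the alternatives of the 6 RNAs. With the replicate number as a block, 745 genes had an unadjusted p under 0.05, against 193 without it, and it changed no call. The count of genes called was 0 to 1 when 1 library was left out, 0 without mutant 2, 3 or 4 or wild-type 1 or 2, where 139 to 269 genes had an unadjusted p under 0.05; Pygo2 was called in all other fits. With 1 library left out, the mutant mean share of Lars2 ranged over 0.00355% to 0.0135% and the wild-type one over 0.00368% to 0.176%, and the wild-type share of Rn45s over 0.596% to 2.03%. The cause of these movements was not tested. At 435 to 827 counts per library, Terc is the row with the least depth.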

Other observations

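C/D small nucleolar RNA genes, which guide methylation of ribosomal RNA, gave a further view of the libraries. The 64 of 74 rows with counts summed to 476, 609, 618 and 535 CPM in mutants 1 to 4, against 610, 591, 1017 and 585 CPM in wild-type 1 to 4. Wild-type 3 was the highest, and the other wild-type libraries, wild-type 4 among them, lay close together at 585 to 610 CPM. Terc per 1000 Rmrp counts was 2.03, 1.42, 2.26 and 2.10 in mutants 1 to 4, against 2.002, 2.43, 2.84 and 2.15 in wild-type 1 to 4, and the groups overlap on this scale too.

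Liver markers, with 1 of 6 detected in every library, summed to 0.180 to 2.56 CPM in mutants and 0.831 to 6.53 CPM in wild-type embryos, highest in wild-type 4. Neural markers, 8 of 10 detected in every library, summed to 31.9 to 564 CPM in mutants and 50.8 to 468 CPM in wild-type embryos. They were lowest in mutant 1, and highest of their group in mutant 3 and wild-type 3. Macrophage markers, 10 of 10 detected in every library, summed to 32.2 to 59.0 CPM in mutants and 25.2 to 33.4 CPM in wild-type embryos. The part of these cell types in the levels of the 6 RNAs was not tested.

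The annotated transcripts of the noncoding RNAs are rich in G and C, with 64.2% in Rmrp, 67.1% in Rpph1, 67.1% in Terc and 57.2% in Rprl3, against 51.2% in Lars2.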
